A study of Mus musculus with 11 samples.

Results

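Inhibins and activins are secreted dimers built from the products of 3 of the genes described here, and follistatins are the secreted proteins that bind activins. The 6 genes are Inha, Inhba, Inhbb, Fst, Fstl3 and Fstl1. They were taken by symbol from the count files, where they make up 6 of 24490 genes, and each was found in all 11 libraries. RNA-seq had been done on primary ovarian granulosa cells of RjOrl:SWISS mice in which the kinase Akt1 was knocked down with siRNA. Akt1 belongs to the AKT family, which relays signals from PI3K. The design compares 4 pools of Akt1 siRNAs, each with 2 libraries, with a nontargeting scrambled siRNA (scramble), with 3 libraries.

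All cells received 30 pmol of siRNA by lipofection with Lipofectamine RNAiMax, the transfection mix stayed on for 5 h, and extraction of RNA followed 30 h after transfection. Each pool held 3 of 4 Akt1 siRNAs, numbered 6 to 9 here by the middle part of their catalogue names. The one left out was siRNA 9 in pool 1, siRNA 7 in pool 2, siRNA 8 in pool 3, and number 6 in the case of pool 4. The titles and the protocol name the pools differently, so that matching them by number is an assumption. Any 2 pools therefore share siRNAs. The age and number of the mice are not given in the labels, nor do the labels say that libraries of a group came from separate cultures. What the p-values measure is the spread of these samples, possibly technical spread.

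The inhibin alpha subunit pairs with a beta subunit to make an inhibin, and beta subunits pair with each other to make activins. Activins signal through type II and type I serine/threonine kinase receptors to SMAD2 and SMAD3, and inhibins oppose them by occupying the type II receptor together with betaglycan. In the ovarian follicle granulosa cells are the main source of these proteins, and inhibin in the blood lowers the release of follicle-stimulating hormone by the pituitary.

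Each library held 23851293 to 32643158 reads in genes, and levels are given in CPM, counts scaled to a common total of reads in genes. Akt1 itself was at 52.7 to 81.7 CPM in the 8 pool libraries, against 399 to 529 CPM in the 3 scramble libraries. It fell by 2.87 ± 0.13 on the log2 scale (SE, edgeR adjusted p = 4.22e-07). Among granulosa markers the transcription factors Foxl2 and Gata4 were at 112 to 203 and 512 to 684 CPM over the 11 libraries, and Amhr2, the receptor of anti-Müllerian hormone, was at 80.5 to 137 CPM. The follicle-stimulating hormone receptor gene Fshr stayed at or below 0.367 CPM, anti-Müllerian hormone, Amh, at or below 0.827 CPM, and the aromatase gene Cyp19a1 at 1.82 to 3.22 CPM. Those 3 markers were thus nearly absent, while the rest of the same list of 10 granulosa markers was not. Of these, Nr5a2 was at 35.9 to 141 CPM, Esr2 at 39.1 to 81.9 CPM, Hsd17b1 at 40.8 to 136 CPM and Wt1 at 101 to 151 CPM. In bulk RNA, fewer cells of a type and less RNA per cell cannot be told apart.

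Scramble replicate 1 stood apart, and this bears on each of the 6 genes. Its median correlation with the other libraries across genes was 0.949, against at least 0.992 for each of the other 10 libraries. Its levels also followed transcript length. Relative to the mean of scramble replicates 2 and 3, the median gene was 0.59 higher on the log2 scale in the shortest of 5 length classes (median length 761 bases) and fell by 0.67 in the longest (4935 bases). For the 6 genes, single pools and all pools together are therefore compared with scramble in all libraries and without scramble replicate 1. That omission was made after the data were seen.

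The inhibin alpha gene Inha (chr1:75507077-75510366, plus strand, mm10) was lower in all 8 pool libraries than in any scramble library. It was at 1824 and 1751 CPM in pool 1 and at 1919 and 2076 CPM in pool 2. Pool 3 had 1241 and 1362 CPM, and pool 4 had 1662 and 1776 CPM. The scramble libraries were at 3486, 2356 and 2128 CPM, with replicate 1 the highest. Pool 3 held the lowest levels and pool 2 the highest of the pools, and the nearest approach was between pool 2 replicate 2 and scramble replicate 3.

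Averaged over the 8 pool libraries Inha was at 1701 ± 277 CPM, against 2657 ± 727 CPM in scramble (SD, n = 8 and 3). The difference of all pools from scramble was −0.68 ± 0.17 on the log2 scale and missed the threshold of 0.05 (edgeR adjusted p = 0.108, over 14144 genes tested). Over 20 alternatives the edgeR, DESeq2 or limma adjusted p ran from 0.0189 to 0.188, and 5 of them called it. Each range over alternatives given below takes in the same 3 tools. Without scramble replicate 3 Inha fell by 0.81 ± 0.19 (edgeR adjusted p = 0.0364), in a comparison that keeps replicate 1, its highest library. When replicate 1 was the one left out, the difference was −0.45 ± 0.17 (edgeR adjusted p = 0.188). By single pools, Inha fell in pool 3, by 1.09 ± 0.19 (edgeR adjusted p = 0.0104). Its differences in pools 1, 2 and 4 were −0.62, −0.41 and −0.67, with edgeR adjusted p of 0.169, 0.611 and 0.128. The call in pool 3 ended when either pool 3 library was left out, at edgeR adjusted p = 0.124 without replicate 1 and 0.0858 without replicate 2, in a range of 3.3e-11 to 0.124 over 18 alternatives. Leaving out scramble replicate 1, Inha fell in pool 1 by 0.39 ± 0.05, in pool 3 by 0.87 ± 0.05 and in pool 4 by 0.44 ± 0.05, with edgeR adjusted p of at most 9.46e-06. In pool 2 its difference without that library was −0.18 ± 0.05 (edgeR adjusted p = 0.0593).

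Inhba encodes the beta A subunit, the chain of activin A and inhibin A, and lies on chromosome 13 (chr13:16011851-16031621, plus strand, mm10). Pool 1 held 336 and 359 CPM, pool 2 held 377 and 403 CPM, pool 3 held 324 and 321 CPM, and pool 4 held 324 and 361 CPM. The scramble libraries were at 20.2, 454 and 464 CPM, so that replicate 1 had less than any pool library while replicates 2 and 3 had more than all 8. Its 2 coding transcripts in GENCODE M21 are 1529 and 6390 bases long.

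Inhba was the member most displaced in scramble replicate 1. There its log2 difference from the mean of replicates 2 and 3 was −4.47, and 3 of 14144 genes had a lower value. Inha, at 0.64, Fstl3, at 0.34, Fst, at 0.15, and Inhbb, at 0.01, lay at or above 0 on the same scale, and Fstl1 at −0.36. The group means of Inhba over all 3 scramble libraries, 351 ± 29.6 CPM in the pools against 312 ± 253 CPM in scramble (SD, n = 8 and 3), rest on that library. With all libraries the log2 difference of all pools from scramble was 0.11 ± 0.57 (edgeR adjusted p = 0.901).

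The sign of the Inhba difference turned without scramble replicate 1, and its error shrank. All pools then stood at −0.44 ± 0.09 (edgeR adjusted p = 0.0787, in a range of 0.0787 to 0.969 over 20 alternatives), in a fit that called 0.469% of genes. Inhba fell in each single pool, with falls of 0.47 for pool 1, 0.25 for pool 2, 0.60 for pool 3 and 0.48 for pool 4, each with an SE of 0.05. The edgeR adjusted p were 2.31e-07, 0.00312, 2.2e-09 and 1.42e-07, and with all 11 libraries none of the 4 comparisons passed (edgeR adjusted p of at least 0.848). The plot of differences by length class sets Inhba beside the other members.

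**Figure D1:**
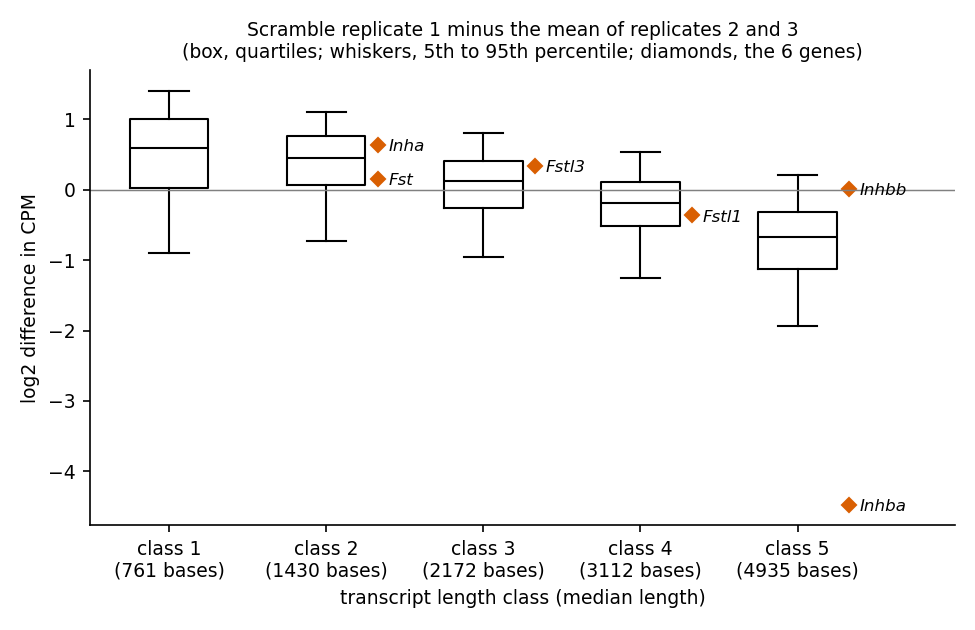
Log2 difference in CPM of scramble replicate 1 from the mean of scramble replicates 2 and 3 (vertical axis) for genes in 5 classes of transcript length (horizontal axis); boxes are quartiles, whiskers the 5th to 95th percentile and diamonds the 6 genes. The class medians run from 0.59 for short to −0.67 for long transcripts, and Inhba lies at −4.47, far under its class.

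Inhbb encodes the beta B subunit, the chain of activin B and inhibin B (chr1:119415465-119422248, minus strand, mm10). It split the pools with little spread inside each. Levels were 52.0 and 51.3 CPM in pool 1, 57.8 and 55.0 CPM in pool 3 and 48.7 and 48.2 CPM in pool 4, but 74.2 and 72.4 CPM in pool 2. The 3 scramble libraries were at 74.5, 73.1 and 74.9 CPM, with replicate 1 between the others. Thus 7 of 8 pool libraries lay below the lowest scramble library, and pool 2 lay at the scramble level.

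The 250 bases before the starts of both beta subunit genes are shown side by side, and no link of these letters to the levels was tested. The place of pool 2 relative to scramble was not compared between the genes by a test. With all libraries pool 2 was called for neither, at edgeR adjusted p of 0.848 for Inhba and 0.889 for Inhbb. Inhbb was at the scramble level in pool 2, whereas Inhba was lower than scramble replicates 2 and 3 in every pool library. For each gene all libraries of the other pools lay below the pool 2 libraries, as they did for 18.7% of all genes tested. Both sequences come from RefSeq (GRCm38.p6). In the Inhba window capitals mark the match to the thymine and adenine rich core promoter motif TATAAA. In that of Inhbb they mark the match to the GC box, spelled GGGCGG and lying on the other strand. The Inhba window is chr13:16011601-16011850 on the plus strand, and the Inhbb window is chr1:119422249-119422498 on the minus strand, both written 5′ to 3′.
Inhba: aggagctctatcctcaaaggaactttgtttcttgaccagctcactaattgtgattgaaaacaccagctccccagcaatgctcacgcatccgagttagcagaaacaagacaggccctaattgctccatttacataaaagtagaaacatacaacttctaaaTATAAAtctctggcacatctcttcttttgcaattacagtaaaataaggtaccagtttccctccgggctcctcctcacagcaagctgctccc
Inhbb: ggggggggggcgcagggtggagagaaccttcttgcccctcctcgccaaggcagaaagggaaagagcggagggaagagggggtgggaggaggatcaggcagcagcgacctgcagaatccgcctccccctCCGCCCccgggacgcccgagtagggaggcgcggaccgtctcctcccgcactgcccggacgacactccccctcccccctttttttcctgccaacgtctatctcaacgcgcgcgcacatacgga
The Inhba match begins 91 bases before the start, and that of Inhbb begins 122 bases before it. Searched on both strands, the first of these motifs was in 12.4% and the GC box in 32.7% of 32851 such windows. Windows were found for 5 of the 6 genes, all but Fst. None of the 5 held the forkhead site of the FOXO factors, spelled GTAAACA and present in 3.17% of windows. For Inha this says little of the sequence before its GENCODE start, because its RefSeq start lies 532 bases downstream of that start and the window (chr1:75507359-75507608) is inside the gene span given above. The RefSeq start of Fstl1 lies 182 bases downstream of the GENCODE start, so that most of its window is inside the gene too. The cAMP response element was also in none of the 5 windows, spelled TGACGTCA and present in 1.55%. The half-site of nuclear receptors such as SF-1, spelled AAGGTCA and present in 4.08%, was in none of them either. Nor did any hold the site of zinc finger factors such as Gata4, spelled AGATAA and present in 9.99%. A match is a description of these letters and not a site in use.

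Inhbb fell in pool 1 by 0.57 ± 0.08 (edgeR adjusted p = 0.0100), in pool 3 by 0.46 ± 0.08 (0.00759) and in pool 4 by 0.66 ± 0.08 (0.00485). In pool 2 its difference from scramble was −0.02 ± 0.08 on the log2 scale (edgeR adjusted p = 0.889). Leaving out either library of the pool concerned ended each call, with edgeR adjusted p of 0.158 and 0.21 without pool 1 replicates 1 and 2, 0.0819 and 0.104 without those of pool 3, and 0.118 and 0.105 without those of pool 4. Over 18 alternatives the call held in 15 for pool 1 and 16 each for pools 3 and 4 (ranges 1.64e-13 to 0.21, 1.6e-09 to 0.104 and 1.79e-17 to 0.118). The 3 falls without scramble replicate 1 were 0.59, 0.48 and 0.67 (edgeR adjusted p of at most 2.59e-08).

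Follistatin, the product of Fst, binds activin tightly and blocks its receptor contacts (chr13:114452290-114458951, minus strand, mm10). Fst had the largest falls among the 6 genes in pools 1, 3 and 4. It was at 36.0 and 32.3 CPM in pool 1, 27.2 and 24.8 CPM in pool 3 and 28.3 and 35.0 CPM in pool 4, while pool 2 held 52.3 and 64.2 CPM. In scramble the libraries were at 65.8, 61.7 and 56.7 CPM. All 6 libraries of pools 1, 3 and 4 lay below every scramble library, and the pool 2 libraries fell on either side of the lowest one.

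Relative to scramble Fst fell by 0.90 ± 0.14 in pool 1 (edgeR adjusted p = 0.0185), by 1.31 ± 0.14 in pool 3 (0.00134) and by 1.002 ± 0.14 in pool 4 (0.0102). In pool 2 the difference was −0.08 ± 0.13 (edgeR adjusted p = 0.741). The call in pool 3 held in 18 of 18 alternatives (edgeR, DESeq2 or limma adjusted p of 2.64e-15 to 0.0299). The call in pool 4 ended without pool 4 replicate 1 (edgeR adjusted p = 0.174) or replicate 2 (0.0654), in a range of 1.33e-08 to 0.174. The call in pool 1 was the least steady and held in 12 of 18 alternatives. It ended without scramble replicate 2 (edgeR adjusted p = 0.059), pool 1 replicate 1 (0.154) or 2 (0.285), or pool 3 replicate 1 (0.0513) or 2 (0.0509), in a range of 2.58e-07 to 0.285. Without scramble replicate 1 the falls were 0.86, 1.28 and 0.96 in pools 1, 3 and 4 (edgeR adjusted p of at most 2.58e-07).

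Fstl3, follistatin-like 3, is a smaller secreted relative of follistatin that also binds activins (chr10:79777272-79782630, plus strand, mm10). It was at 40.7 and 43.4 CPM in pool 1, 43.5 and 43.3 CPM in pool 2, 35.5 and 38.9 CPM in pool 3 and 41.1 and 39.0 CPM in pool 4. Scramble libraries were at 60.9, 50.0 and 46.3 CPM, with replicate 1 the highest. All 8 pool libraries were below all 3 scramble libraries, and the pools lay close together.

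Fstl3 fell in pool 3, by 0.56 ± 0.12 (edgeR adjusted p = 0.0210), a call that ended without pool 3 replicate 1 (0.205) or replicate 2 (0.108), in a range of 2.28e-06 to 0.205 over 18 alternatives. Its differences in pools 1, 2 and 4 were −0.37, −0.27 and −0.43, with edgeR adjusted p of 0.185, 0.611 and 0.116. Without scramble replicate 1 it fell in pools 1, 3 and 4 by 0.26, 0.46 and 0.33 (edgeR adjusted p of at most 0.00196), and its difference in pool 2 was −0.17 (0.132). Its promoter window is shown because it is the only one of the 5 with both motifs, a TATA motif close to the start and a cluster of GC boxes. It covers chr10:79777024-79777273 on the plus strand (RefSeq, GRCm38.p6), with capitals on the GC boxes, which lie on the other strand and run into each other, and on the TATA box, also on the other strand.
Fstl3: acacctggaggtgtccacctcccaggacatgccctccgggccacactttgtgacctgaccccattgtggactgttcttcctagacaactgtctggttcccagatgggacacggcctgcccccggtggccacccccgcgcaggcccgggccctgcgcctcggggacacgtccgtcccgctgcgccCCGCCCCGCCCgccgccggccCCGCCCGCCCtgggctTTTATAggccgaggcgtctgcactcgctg
The 4 GC boxes begin 66, 61, 45 and 41 bases before the start, and the TATA box begins 29 bases before it.

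Fstl1, follistatin-like 1, carries a follistatin domain but is a secreted glycoprotein known mainly for signalling outside the activin axis (chr16:37776873-37836514, plus strand, mm10). It was at 1336 and 1296 CPM in pool 1, 1154 and 1197 CPM in pool 2, 1368 and 1397 CPM in pool 3 and 1267 and 1299 CPM in pool 4. Scramble libraries were at 970, 1268 and 1230 CPM, with replicate 1 the lowest, and 5 of 8 pool libraries lay above the highest of them. Pool 2 held the 2 lowest pool libraries.

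In no pool did Fstl1 differ from scramble by the test. Its differences were 0.13, 0.02, 0.19 and 0.10 in pools 1 to 4, with SE of 0.13 each and edgeR adjusted p of at least 0.395. Without scramble replicate 1 they were 0.01, −0.10, 0.06 and −0.02 with SE of 0.04 (edgeR adjusted p of at least 0.166), so that in pools 2 and 4 the sign turned.

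**Figure D2:**
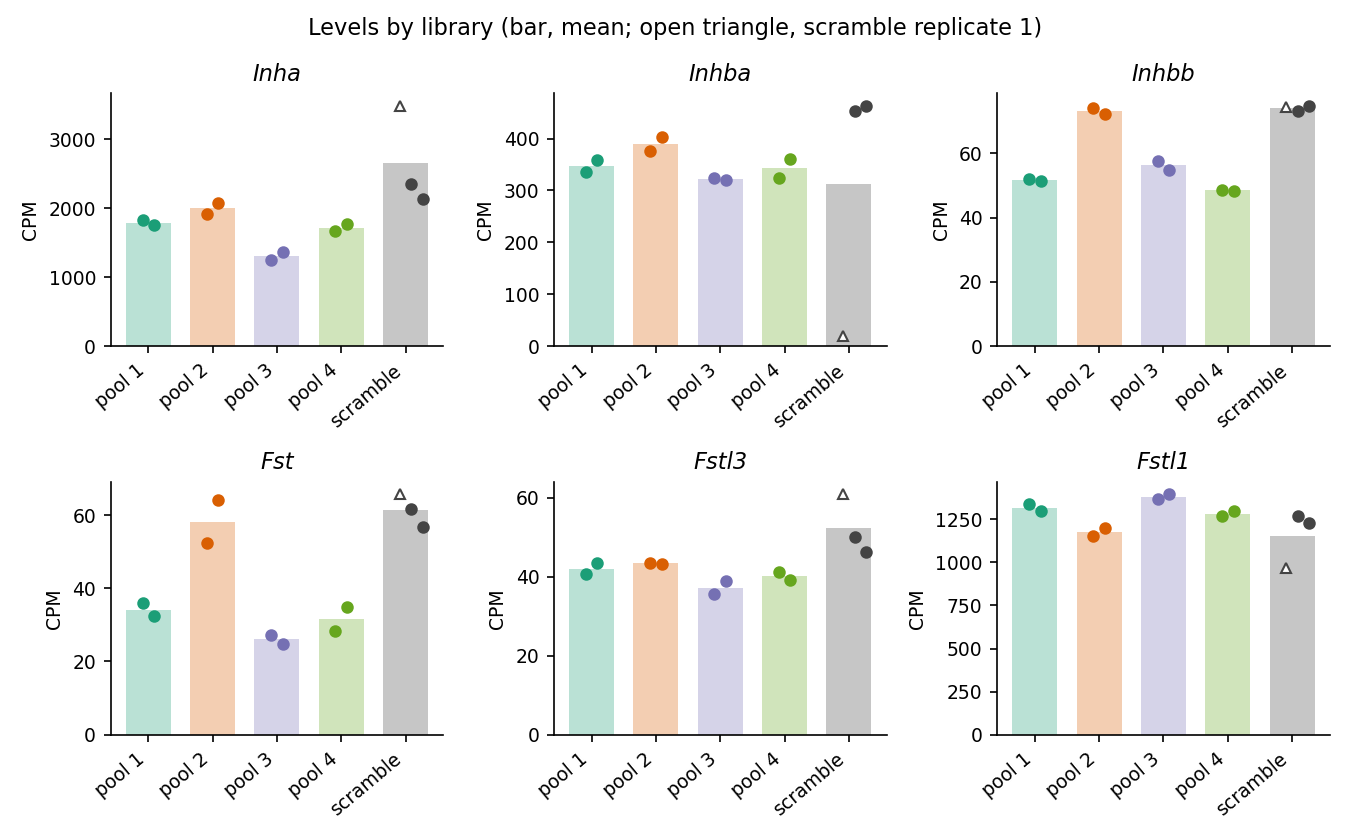
CPM (vertical axis, from 0) of each of the 6 genes in each library, by pool and scramble (horizontal axis); bars are group means, points libraries and the open triangle scramble replicate 1. Pools 1, 3 and 4 lie below pool 2 and scramble for Inhbb (48.2 to 57.8 CPM against 72.4 to 74.9) and Fst (24.8 to 36.0 against 52.3 to 65.8), and scramble replicate 1 lies at 20.2 CPM for Inhba.

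Set against all genes, all pools together gave no called member by edgeR, with 1 of 14144 genes called in all (0.00707%), namely Akt1. Unadjusted p was below 0.05 for 4 of the 6, Inha, Inhbb, Fst and Fstl3, and for 28.6% of all genes. DESeq2 called 2 of them, Inha (DESeq2 adjusted p = 0.0189) and Fstl3 (0.0116), with 8.44% of genes called, and limma-voom called 0. The absence of calls turned with 1 library: without scramble replicate 3, edgeR called Inha and Fstl3, with falls of 0.81 and 0.48 (edgeR adjusted p of 0.0364 each), in a fit that called 16.5% of genes. No member was called by edgeR without scramble replicate 1, in a fit that called 0.469% of genes. The differences were then −0.45 for Inha, −0.42 for Inhbb, −0.71 for Fst and −0.30 for Fstl3 (edgeR adjusted p of 0.188, 0.206, 0.229 and 0.133). The 2-group comparison counts differences between pools as error. Where the mean of the 4 pools was tested in the fit with 5 groups, 4 members fell, Inha by 0.70, Inhbb by 0.43, Fst by 0.82 and Fstl3 by 0.41 (edgeR adjusted p of 0.0215, 0.00452, 0.00312 and 0.0284). That fit called 901 genes, of which the lower ones were 4.75% of genes tested. Its error is the spread within groups and leaves out differences between pools. For Inhbb and Fst, pool 2 differed from scramble by only −0.02 and −0.08, so their mean falls come mainly from pools 1, 3 and 4. The same test without scramble replicate 1 called 5 members lower, as it did 2908 of 14062 genes. Inhba was the added member, with a fall of 0.45 (edgeR adjusted p = 5.79e-09). Leaving out both pool 2 libraries from the 2-group comparison gave the same 4 members, with falls of 0.78, 0.56, 1.06 and 0.45 (edgeR adjusted p of at most 0.0242), where 6.65% of genes were called lower. That omission was chosen with the position of pool 2 known from earlier results of these data, so the falls describe the other 3 pools only.

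Counts of members lower than scramble were 2 of 6 in pool 1, where 1.47% of all genes tested were called lower, 4 of 6 in pool 3 (6.84%) and 2 of 6 in pool 4 (1.99%). None was called higher. Pool 2 had 0 of 6, with 0.00707% of genes called, 1 member at an unadjusted p below 0.05 (Fstl3, against 4.62% of genes), 0 by DESeq2 and 0 by limma-voom. Without scramble replicate 1, 5 of 6 members, all but Fstl1, fell in each of pools 1, 3 and 4, where 17%, 26.1% and 17.8% of genes were called lower. In pool 2 Inhba alone fell, with 2.69% of genes called lower. The 4 comparisons share the scramble libraries and are not independent of each other.

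**Figure D3:**
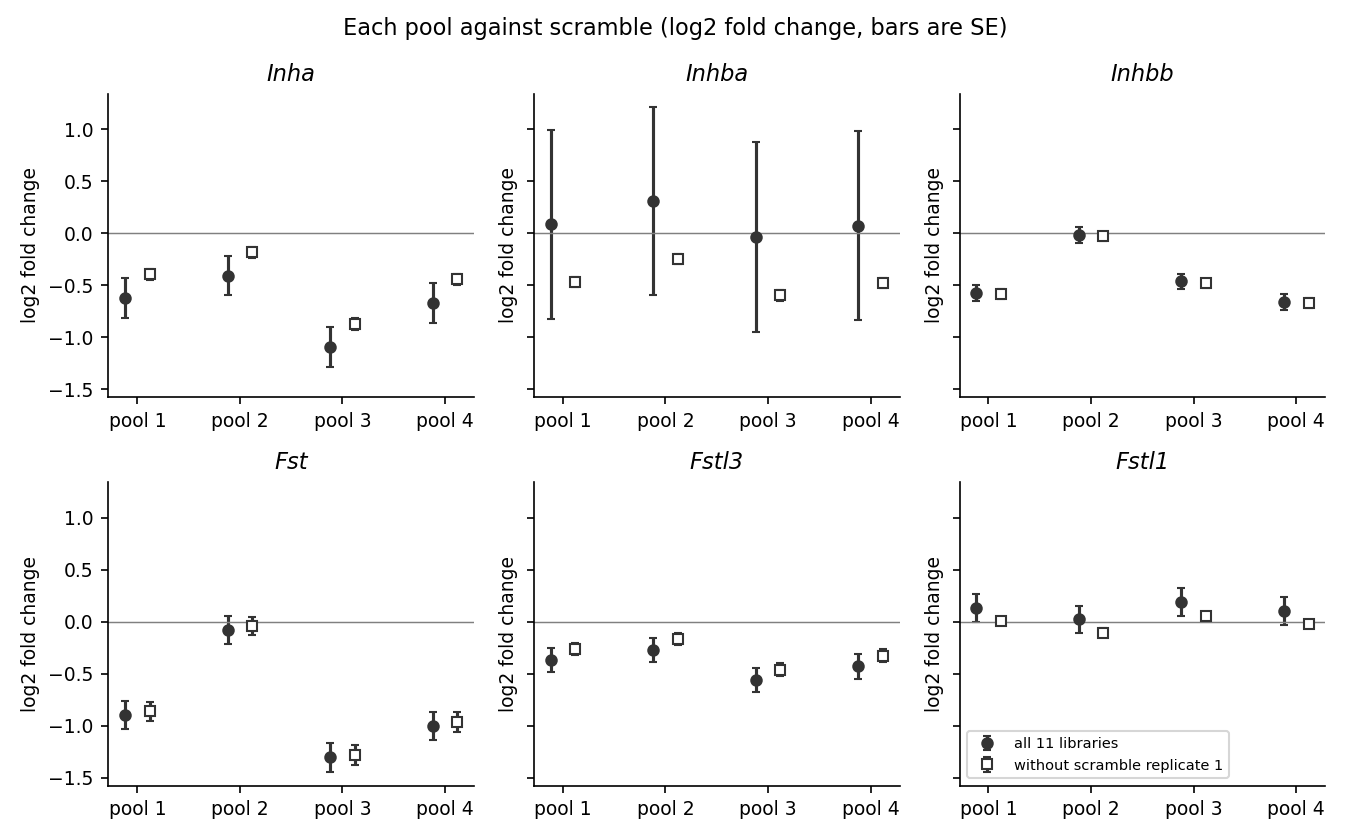
Log2 fold change of each pool (horizontal axis) over scramble for the 6 genes, from edgeR with all 11 libraries (filled circles) and without scramble replicate 1 (open squares); bars are SE. Fst in pools 1, 3 and 4 lies at −0.90 to −1.31 with all libraries and near 0 in pool 2, and the wide bars of Inhba shrink when scramble replicate 1 is left out.

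By overlap of CPM alone, Inha and Fstl3 were lower in all 8 pool libraries than in all 3 scramble libraries, as were 2.67% of the genes tested. Against scramble replicates 2 and 3, Inhba joined them, with 5.29% of genes so placed. For 4 members, Inha, Inhba, Inhbb and Fst, the 6 libraries of pools 1, 3 and 4 all lay below both pool 2 libraries (18.7% of genes). Fstl1 was the reverse, with all 6 above both pool 2 libraries (31.6% of genes).

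The pools differed among themselves for 2 members. Tested for any difference among the 4 pools, Fst (edgeR adjusted p = 0.0129) and Inhbb (0.0155) passed, with 2.46% of genes called. Relative to the mean of the other 3 pools, pool 2 was higher by 0.99 ± 0.11 for Fst (edgeR adjusted p = 0.00225) and by 0.55 ± 0.07 for Inhbb (0.00286), where 3.95% of genes were called higher. The other members had differences of 0.39 ± 0.16 for Inha (edgeR adjusted p = 0.272), 0.26 ± 0.80 for Inhba (0.978), 0.18 ± 0.10 for Fstl3 (0.450) and −0.12 ± 0.12 for Fstl1 (0.788). Without pool 2 replicate 1 the Inhbb call ended (edgeR adjusted p = 0.0774), and without pool 2 replicate 2 both ended, at 0.0623 for Inhbb and 0.0563 for Fst. Over 19 alternatives the ranges were 3.29e-16 to 0.0774 for Inhbb and 4.35e-11 to 0.0563 for Fst.

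The 4-pool test of Inhbb was less steady. Its call ended when any of the 8 pool libraries was left out, at edgeR adjusted p of 0.0774 to 0.263, and it held in 9 of 19 alternatives (4.5e-16 to 0.263). For Fst it ended without pool 2 replicate 1 (0.0887) or 2 (0.176), or pool 3 replicate 1 (0.0819) or 2 (0.0836), and held in 14 of 19 (1.56e-11 to 0.176).

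Pool 3 lay lower than the other 3 pools for Fst, by 0.65 ± 0.10 (edgeR adjusted p = 0.0436), with 1.23% of genes called lower. That call held in 7 of 19 alternatives (6.59e-07 to 0.448), and of the omissions of a single library it held only without scramble replicate 1. Pool 1 and pool 4 had no member called against the other pools, with 0.0141% and 0% of genes called. Of the members, 1 in each had an unadjusted p below 0.05, as had 1.42% and 1.36% of genes. DESeq2 called none in pool 1 and 1 in pool 4 (0.119% of genes called there), and limma-voom called none in either.

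Because scramble replicate 1 enters the spread that these tests share, the pools were also compared within their own 8 libraries, a step added after the data were seen. All 6 members then differed among the pools, in a fit that called 48.6% of genes. In pool 2, 5 members rose relative to the other 3 pools (25.3% of genes called higher), Fst by 0.995 ± 0.07, Inhbb by 0.55 ± 0.03, Inha by 0.39 ± 0.04, Inhba by 0.27 ± 0.04 and Fstl3 by 0.19 ± 0.04. Fstl1 was lower there by a log2 difference of −0.12 ± 0.03 (22.3% of genes called lower). The edgeR adjusted p were at most 0.00153. In pool 3, 4 members fell relative to the other pools (24.1% of genes called lower), Fst by 0.66, Inha by 0.53, Fstl3 by 0.21 and Inhba by 0.20, and Fstl1 rose by 0.09 (20.4% of genes called higher), with edgeR adjusted p of at most 0.00696. Inhbb was not among them in pool 3, at −0.06 ± 0.04 (edgeR adjusted p = 0.216), but fell in pool 1 by 0.19 (0.00321), where 1.94% of genes were called lower, and in pool 4 by 0.30 (2.49e-05), where 1.81% were.

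Akt1 did not follow the order of these members over the pools. Pool 2, which had the smallest differences from scramble for Inha, Inhbb, Fst and Fstl3, had Akt1 at 52.7 and 55.1 CPM, and pool 3, which had the largest for Inha, Fst and Fstl3, had it at 79.3 and 81.7 CPM, against 58.6 to 63.9 CPM in pool 1 and 55.1 to 62.4 CPM in pool 4. Within the 8 pool libraries Akt1 fell in pool 2 by 0.24 ± 0.04 relative to the other pools (edgeR adjusted p = 0.000128) and rose in pool 3 by 0.43 ± 0.04 (2.88e-08). With all 11 libraries in the fit, its differences were −0.24 ± 0.11 in pool 2 (edgeR adjusted p = 0.329) and 0.44 ± 0.11 in pool 3 (0.0873).

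Levels per kilobase of the median coding transcript allow the members to be ranked. In the mean of the 8 pool libraries Inha stood first at 1153 CPM per kb, Fstl1 second at 340 and Inhba next at 88.6, before Fst at 25.3, Fstl3 at 20.8 and Inhbb at 13.5. The order was the same in the mean of scramble replicates 2 and 3, at 1520, 330, 116, 39.96, 24.6 and 17.4 CPM per kb. The place of Fst depends on the transcript taken, since its coding transcripts of 892 to 2833 bases give 20.9 to 66.4 CPM per kb in those scramble libraries. With either Inhba transcript, at 71.8 or 300 CPM per kb there, Inhba kept its place between Fstl1 and Fst. In scramble replicate 1, by the median coding transcript, Inhba stood last at 5.10 CPM per kb, below Inhbb at 17.5.

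Ratios of counts within a library show how the members moved relative to each other, and they are given without a test. Fst to Fstl3 was 0.637 to 0.897 in the 6 libraries of pools 1, 3 and 4, 1.20 to 1.48 in pool 2 and 1.08 to 1.23 in scramble, so that Fst counts lay under Fstl3 counts only in pools 1, 3 and 4. Inhba to Fst was 9.36 to 12.9 in pools 1, 3 and 4 and 6.29 to 7.21 in pool 2, against 7.35 and 8.18 in scramble replicates 2 and 3 and 0.307 in replicate 1. For Inhba to Inha the 8 pool libraries, at 0.184 to 0.261, overlapped scramble replicates 2 and 3, at 0.192 and 0.218. Inhbb to Inha was 0.0404 to 0.0465 in pool 3 and 0.0272 to 0.0386 in the other pools, against 0.0214 to 0.0352 in scramble.

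**Figure D4:**
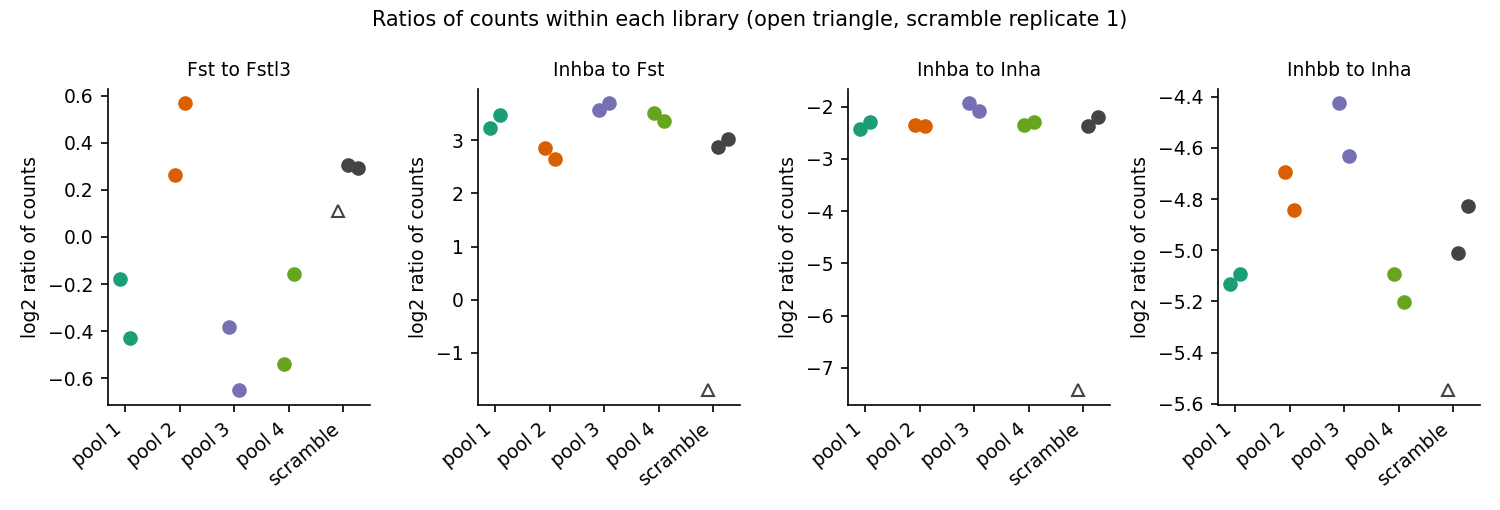
Log2 ratio of counts of 2 members within each library (vertical axis) by pool and scramble (horizontal axis); the open triangle is scramble replicate 1. Fst to Fstl3 lies below 0 in all 6 libraries of pools 1, 3 and 4 and above 0 in pool 2 and scramble, and both ratios of Inhba drop in scramble replicate 1.

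The genes whose levels followed Inhbb and Fst most closely were sought over the 11 libraries, by the root mean square difference in log2 CPM after centring each gene. For Inhbb these were Zcchc4 (0.0703), Fgfr1op (0.0853) and Sh3glb1 (0.0887). For Fst they were Serpine2 (0.0888), Ankrd40 (0.09996) and Plod1 (0.105). Serpine2, a secreted inhibitor of serine proteases, averaged 727, 1153, 547 and 665 CPM in pools 1 to 4, against 1393 CPM in scramble. Plod1, a collagen lysyl hydroxylase, averaged 57.1, 88.2, 46.5 and 51.7 CPM in pools 1 to 4, against 102 CPM in scramble. These genes were picked for their likeness, and the libraries they share set part of it.

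Other genes of the pathway were taken from 7 lists of 79 genes, of which 67 were tested. With all libraries, called genes numbered 11 of 67 (16.4%) for pool 3, 5 (7.46%) for pool 4 and 2 (2.99%) for pool 1. Pool 2 had 0, with 2 at an unadjusted p below 0.05 and 0 called by DESeq2. Over all genes the shares called in either direction were 11.2%, 2.57%, 1.93% and 0.00707%. Among receptors and co-receptors, Bambi, a decoy receptor that lacks a kinase domain, fell in pool 3 by 1.01 ± 0.24 (edgeR adjusted p = 0.0354), and 1 of 9 tested was called. Of the SMAD effectors and their inhibitors 2 of 13 were called there, Smad6, an inhibitory SMAD, which fell by 0.97 ± 0.13 (0.00324), and Ppm1a, a phosphatase of SMAD2 and SMAD3, which rose by 0.31 ± 0.08 (0.0476).

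Of the genes known to be raised by activin or TGF-beta, Ccn2, a matricellular protein gene listed in the files under its older symbol Ctgf, was the 1 of 9 called in pool 3 and rose by 0.83 ± 0.11 (edgeR adjusted p = 0.00309). Among other ligands of the family 2 of 9 were called in pool 3, Bmp6, which rose by 0.62 ± 0.11 (0.0106), and Tgfb3, which fell by 0.41 ± 0.09 (0.0242). Among processing proteases Bmp1, which cleaves extracellular matrix precursors, was the 1 of 6 called and rose by 0.41 ± 0.08 (0.0158). Among other proteins with follistatin domains Tmeff1 was the 1 of 12 called and rose by 0.81 ± 0.09 (0.00184). Of all genes tested, 11.2% were called in pool 3 in either direction, so counts of 1 or 2 in such short lists say little about a list.

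Of the transcription factors known for inhibin or follistatin promoters 3 of 11 fell in pool 3, where 6.84% of all genes were called lower, and none rose. They were Foxo1, by 0.84 ± 0.21 (edgeR adjusted p = 0.0369), a forkhead factor that AKT kinases phosphorylate, Nr5a1, by 0.81 ± 0.10 (0.00200), the nuclear receptor SF-1, and Crem, by 0.66 ± 0.11 (0.00704), a cAMP-responsive factor. The median log2 difference was −0.30 over these 11 factors, against −0.02 over all genes tested. Crem also fell in pool 1, by 0.57, and in pool 4, by 0.63, and Nr5a1 in pool 4, by 0.53 (edgeR adjusted p of 0.0392, 0.0240 and 0.0307). The other calls in those pools were Tmeff1, which rose by 0.52 in pool 1 and 0.60 in pool 4, Ccn2, which rose by 0.61 in pool 4, and Tmeff2, which fell there by 1.10 (edgeR adjusted p of 0.0353, 0.0185, 0.0320 and 0.0352). These list calls rested on few libraries. For pool 3, 2 list genes were called without its replicate 1, 4 without its replicate 2 and 7 without any one of the other pool libraries, against 40 without scramble replicate 1, where 48.8% of all genes were called. Without any one of the 8 pool libraries no list gene was called for pool 1 or pool 4, and without scramble replicate 2 there were 0 and 1, against 30 and 36 without scramble replicate 1 (28.8% and 31% of all genes).

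Pool 2 differed from the other pools for 6 of 67 genes of the lists (8.96%, against 5.25% of all genes). Smad6, Nr5a1 and Tgfb3 were higher there, by 0.64 ± 0.11, 0.44 ± 0.08 and 0.39 ± 0.08, with edgeR adjusted p of 0.0134, 0.0185 and 0.0262. Ccn2, Tmeff1 and Bmp6 fell by 0.51, 0.51 and 0.47, with edgeR adjusted p of 0.0254, 0.0134 and 0.0358. No list gene was called in this comparison without either pool 2 library, and 1 or 2 were called without one of the other pool libraries, against 37 without scramble replicate 1 (43.7% of all genes). Nr5a1, for one, averaged 123, 144, 95.5 and 114 CPM in pools 1 to 4, against 159 CPM in scramble.

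**Figure D5:**
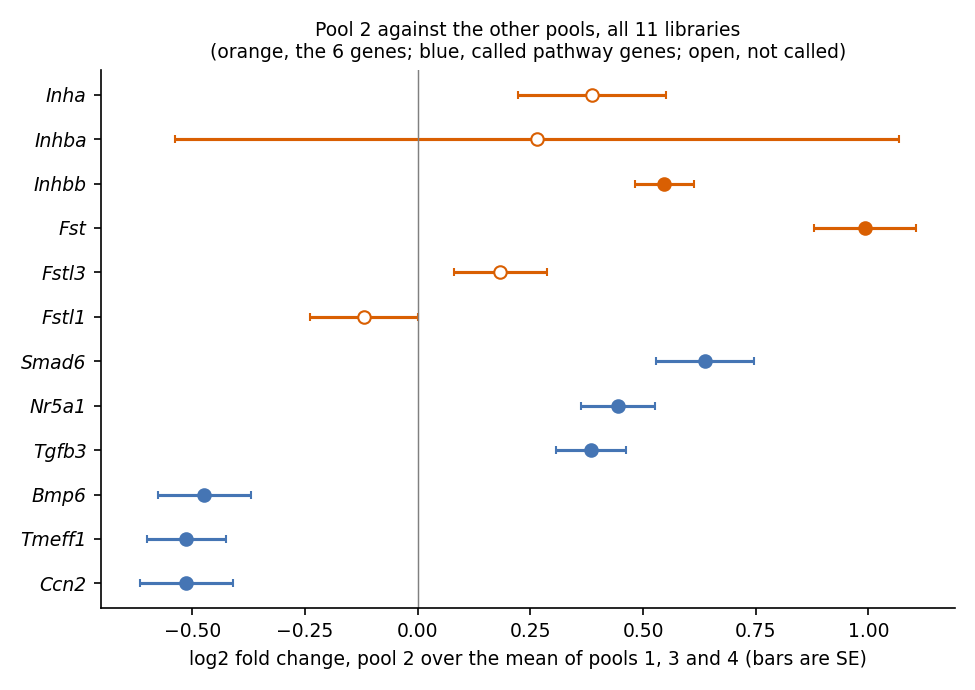
Log2 fold change of pool 2 over the mean of pools 1, 3 and 4 (horizontal axis), from edgeR with all 11 libraries, for the 6 genes (orange) and the pathway genes called (blue); filled circles were called, open ones were not, and bars are SE. Fst and Inhbb lie at 0.99 and 0.55, and the 6 pathway genes lie between −0.51 and 0.64.

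With scramble replicate 1 left out, the factors of the list fell in 7, 8 and 7 of 11 cases in pools 1, 3 and 4 and in 1 of 11 in pool 2, with none called higher. Of all genes 17%, 26.1%, 17.8% and 2.69% were called lower in pools 1, 3, 4 and 2. Foxo1 fell by 0.81, 1.04 and 0.78 in pools 1, 3 and 4, and Nr5a1 by 0.39, 0.77 and 0.49 (edgeR adjusted p of at most 6.67e-06). Receptors and co-receptors went both ways, with 3, 4 and 3 of 9 lower and 1, 2 and 2 higher in pools 1, 3 and 4, where 11.8%, 22.7% and 13.2% of all genes were called higher. Acvr2b, an activin type II receptor gene, rose by 0.33, 0.53 and 0.26 (edgeR adjusted p of at most 0.0302). The activin type I receptor gene Acvr1b fell there, by 0.82, 0.97 and 0.83 (edgeR adjusted p of at most 2.01e-06). It was at 8.83 and 7.76 CPM in pool 1, 15.5 and 15.7 CPM in pool 2, 8.12 and 7.05 CPM in pool 3 and 7.74 and 8.66 CPM in pool 4, against 4.84, 13.9 and 14.1 CPM in scramble. Scramble replicate 1 was the lowest library of all 11 for Acvr1b, and with all libraries no pool was called for it. Of the processing proteases 2 of 6 were lower and 1 was higher in each of these pools. Bmp1 rose by 0.21, 0.38 and 0.19 in pools 1, 3 and 4 (edgeR adjusted p of at most 0.00114). Furin, a protease that cuts activin and inhibin precursors, fell by 0.55, 0.76 and 0.59 in pools 1, 3 and 4 (edgeR adjusted p of at most 2.07e-08). With all libraries, neither the fall of Furin nor the rise of Acvr2b was called in any of these pools, and Bmp1 was called in pool 3 only.

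The authors' deposited table compares all pools with scramble in 1 step. There Inha stood at −0.58 (adjusted p = 0.0162 in the authors' deposited table) and Fstl3 at −0.38 (0.0101), both past 0.05. Inhbb at −0.36 (0.0830), Fst at −0.56 (0.0647) and Fstl1 at 0.11 (0.410) were not past it in the authors' deposited table. Inhba has a log2 difference of 0.04 and no p-value in it. Of the 10136 genes with an adjusted p in the authors' deposited table, 985 (9.72%) were below 0.05.

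Markers of other ovarian cells were summed in each library. The sum of 6 surface epithelium markers was 329 to 376 CPM in the pools, against 325 to 615 CPM in scramble, where 615 was replicate 1. The sum of 8 theca and stroma markers was 2445 to 3615 CPM in the pools, against 3389 to 4440 CPM in scramble, with 4440 again in replicate 1. Most of it came from Acta2 and Col1a1, which averaged 1483 and 1457 CPM. The theca genes Cyp17a1 and Insl3 stayed at or below 0.460 and 0.0669 CPM. The 5 luteal markers summed to 467 to 707 CPM in the pools and 547 to 604 in scramble, with Star averaging 527. The 10 granulosa markers summed to 1026 to 1341 CPM in the pools and 1186 to 1341 in scramble. Summed markers of leukocytes, endothelium and oocytes stayed at or below 17.98 CPM in each library, and no marker of these lists was at 0 in all libraries. The part of these differences in the values of the 6 genes was not tested.

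Some reads of these genes cannot be assigned with certainty. In GENCODE M21 Inhba overlaps B230303A05Rik and Gm48444, Fst overlaps Gm47040 and Fstl3 overlaps Prss57, each on the opposite strand. The strand setting of the counting is not given in the sources used here, so reads of such partners cannot be told apart.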

How the data were processed

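Primary granulosa cells gave 11 libraries, 3 scramble and 2 from each of 4 Akt1 siRNA pools. Per the labels, libraries were made with a stranded mRNA kit from 1.3 µg of total RNA and read as single reads of 75 bases. Per the submitters' processing notes the build was mm10 and the tools were featureCounts 1.5.0-p2, TopHat2, DESeq2, cutadapt 1.9.1, bcl2fastq 2.15.0 and FastQC 0.11.5, with no settings stated. The authors deposited whole-number counts per gene symbol without normalization, for 24490 genes and 92 ERCC spike-in sequences. ERCC lines, 0.268% to 0.788% of the counts of a library, entered neither library sizes nor tests. The authors' deposited table holds, per the file headers, p-values and adjusted p-values, a Wald score, log2 fold changes with their errors, and a mean signal of normalized counts. Its direction was taken as pools over scramble because Akt1 is negative in it.

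Counts were tested in R 4.3.3 with edgeR 4.0.16 (TMM scaling, filterByExpr, two-sided quasi-likelihood F test, Benjamini-Hochberg adjusted p below 0.05, no minimum fold), on 14144 genes. All 6 members passed the low-count filter. All pools against scramble used 2 groups, and the other comparisons 1 fit with 5 groups that share 1 estimate of spread. The 8 pool libraries are treated as independent in the first, although 2 share each pool, so its p-values may be too small. Alternatives were DESeq2 1.42.0, limma-voom (limma 3.58.1), RLE scaling, testing without a low-count filter, testing genes above 1 CPM in every library, the replicate number as a block, offsets for transcript length, and each library left out. With 1 library left in a pool, it is assumed to vary like the other groups. The fit code was tested on simulated data with spread estimated without scramble replicate 1. That test does not cover the wider spread of fits that keep this library. Differences of scramble replicate 1 used log2 of CPM plus 0.5, and likeness between genes used log2 CPM with a prior count of 3. Same-group libraries differed by more than counting noise.

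The 6 genes and the lists were chosen with earlier results of these data known. The genes named were the 6 and Akt1, from each list the called members (at most 3 by size of change), and for members called in the 4-pool test the 3 genes of most similar pattern, at an average log2 CPM of 2 or more. Acvr1b, Acvr2b, Furin and Bmp1 (without scramble replicate 1) were named after their values were seen. Gene positions and lengths come from GENCODE M21 and promoter windows from RefSeq (GRCm38.p6).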

Additional observations from a re-analysis of the deposited data

Results flagged for a closer look

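The 4 pools were meant to hit the same gene, yet their effects on a pair of members differed by a test of the difference itself. For Fst a joint test of the 4 pools against each other gave an edgeR adjusted p of 0.0129, and for Inhbb it gave 0.0155, with 2.46% of genes called. These calls were not steady and held in 14 of 19 alternatives for Fst and 9 of 19 for Inhbb. In both, pool 2 lay apart from the other 3 pools, with Fst at 52.3 and 64.2 CPM and Inhbb at 74.2 and 72.4 CPM.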

How the results depend on the processing

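Counts of called genes moved with the libraries that entered. Over single omissions they ran 1 to 2336 for all pools against scramble (1 with every library), 9 to 4044 for pool 1 (273), 1 to 618 for pool 2 (1), 210 to 6864 for pool 3 (1580) and 17 to 4364 for pool 4 (363). They ran 6 to 6017 for any difference among the 4 pools (348), 0 to 243 for pool 1 against the other pools (2), 111 to 6149 for pool 2 (743), 0 to 5569 for pool 3 (259) and 0 to 209 for pool 4 (0). The highest count came without scramble replicate 1 in each, except all pools against scramble, where it came without replicate 3. DESeq2 called 1147 genes for all pools, 788, 28 and 872 for pools 1, 2 and 4 against scramble, 1072 in the 4-pool test, and 9, 1275, 854 and 9 for pools 1 to 4 against the others. Transcript length offsets gave 7 for all pools, 739, 10, 2770 and 884 for pools 1 to 4, 880 in the 4-pool test, and 1503 and 944 for pools 2 and 3 against the others; of those for pool 2, 64.5% were higher, against 75.2% without offsets. With them the 4-pool call of Inhbb ended (edgeR adjusted p = 0.183). RLE scaling and no filter each gave 2 for all pools, and no filter gave 158 for pool 3 against the others, where the Fst call ended (edgeR adjusted p = 0.0635). The mean of the 4 pools gave 901 and omission of both pool 2 libraries 1390. The 8 pool libraries alone gave more than any single omission, 6835 in the 4-pool test and 420, 6692, 6249 and 333 for pools 1 to 4 against the others.

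No pairing of libraries by replicate number was seen: over 20 pairs with the same number, deviations from group means correlated at −0.0501 to 0.0786. With 2 libraries per pool these deviations mirror each other, so that values between pools repeat and the check is weak. With the replicate block 1649 genes were called for all pools, Inha and Fstl3 among them (edgeR adjusted p of 0.0480 each). Only scramble has a replicate 3, so the block gives that library its own term and takes it out of comparisons with scramble. Its all-pools result is therefore not separate from the omission of scramble replicate 3. The block called 96 and 151 genes for pools 1 and 4, 146 in the 4-pool test, and 0 and 51 for pools 1 and 3 against the others. Under it the edgeR adjusted p was 0.0616 for Inhbb and 0.0676 for Fst in pool 1, 0.0656 and 0.0564 in the 4-pool test, and 0.103 for Fst in pool 3 against the others.

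Signs turned only for differences that were not called with all libraries. Inhba in pool 3 became 0.90 with limma-voom and 0.73 with the replicate block, and with length offsets pool 2 against scramble became 0.052 for Fst and −0.12 for Fstl1. Over single omissions Inhba ran −0.44 to 0.51 for all pools, and −0.47 to 0.49, −0.25 to 0.71, −0.60 to 0.36 and −0.48 to 0.48 for pools 1 to 4. Fstl1 ran −0.014 to 0.19 for all pools, −0.10 to 0.10 for pool 2 and −0.022 to 0.18 for pool 4. In pool 2 Fst ran −0.23 to 0.065 and Inhbb −0.035 to 0.00016. Against the other pools, Inhba ran −0.073 to 0.015 in pool 1, and in pool 4 Inhba ran −0.12 to 0.027, Inha −0.0069 to 0.081, Fstl1 −0.025 to 0.0038 and Fstl3 −0.072 to 0.011. The cause of these changes was not tested. With 2 libraries per pool, a difference that misses the threshold may be one that this number could not show.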
